A study of Mus musculus with 35 samples.

Results

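The response of spleen PMN-MDSC to poly(I:C)c was examined in 7 of the 35 libraries of the series, 3 from treated and 4 from untreated tumor-bearing mice. Genes were tested if they held a mean of at least 25 counts over these 7 libraries, which left 7261 of the 53379 genes in the table. Of these, 271 belong to lists of interferon-stimulated genes, MHC genes and mature neutrophil genes, and the 6990 genes beyond these lists are described here, including those that fell. All mice were C57BL6 animals that carried orthotopic pancreatic tumors of T110299, a single line derived from the KPC model of pancreatic ductal adenocarcinoma. Treated mice received 50 µg of poly(I:C) complexed with polyethylenimine (poly(I:C)c, N/P ratio 6) intravenously on days 18 and 20 after tumor induction. The series' design text, the treatment protocol and the study's methods name glucose as the control, whereas the sample labels call the control mice untreated, a name kept here. CD11b+ cells were enriched from spleens with magnetic beads, and live Ly6C low Ly6G+ cells were then sorted by flow cytometry as PMN-MDSC. Each library was made from the total RNA of 1 such sorted sample after depletion of ribosomal RNA. The design text describes 8 mice in all, 4 in each arm, and the sample titles of a group carry different replicate numbers. The p-values measure the spread between these libraries.

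PMN-MDSC are neutrophil-like cells that accumulate in tumor-bearing hosts and dampen T cell responses. Double-stranded RNA made synthetically as poly(I:C) mimics a viral genome, and polyethylenimine brings it into the cytosol, where the sensor MDA5 detects it and starts the production of type I interferon. Neutrophils mature in bone marrow through stages that are marked by successive granule classes, and the spleen of tumor-bearing mice holds them beside red pulp macrophages, dendritic cells, B cells and erythroid precursors.

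The libraries are named A to D (untreated) and E to G (treated), and the letters carry no order. Total counts lay between 2008010 and 3769395 in untreated and between 1561674 and 2777637 in treated libraries. At least 1 count was found for 17684 to 20072 genes in untreated and 14456 to 15692 genes in treated libraries. Thinned to the 1561674 counts of library E, untreated libraries still held 15846 to 18762 genes with a count and treated ones 13958 to 14456, so fewer genes were detected after treatment in every library at equal depth. Levels are given as counts relative to library size (CPM, scaled by TMM), and 3 counts in a library correspond to 0.719 to 1.55 CPM in untreated and 1.21 to 2.18 CPM in treated libraries. Of the 15 cell type marker lists, neutrophil markers had the highest sum in every library. The summed level of 12 neutrophil markers, all tested, was 22682, 34035, 40297 and 29185 CPM in untreated and 88702, 42839 and 46564 CPM in treated libraries, whereas 13 T cell markers summed to at most 15.7 CPM in any library, with Trac and Cd8b1 at 0 counts throughout. Ly6g, the gene of the sort antigen Ly6G, is on the mature neutrophil list and stood at 31.2, 53.6, 77.5 and 45.1 CPM in untreated and at 331, 272 and 376 CPM in treated libraries (log2 fold change 2.65 ± 0.30 SE, adjusted p = 0.0028). For Ly6c2, the gene of the antigen Ly6C that the sort required to be low, the mean CPM, here without TMM scaling, was 63.3 in untreated and 832 in treated PMN-MDSC, against 143 and 919 in untreated and treated spleen M-MDSC, which were sorted as Ly6C high. The treated PMN-MDSC thus held more of this RNA than untreated M-MDSC, a difference given as a value and not tested.

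Increases and decreases were nearly balanced. A gene was called if its p-value from edgeR's quasi-likelihood F-test, adjusted by Benjamini-Hochberg over all 7261 genes, was under 0.05. On this rule 443 genes (6.1% of those tested) were higher and 401 genes (5.52%) lower in treated mice, and 1993 genes had an unadjusted p under 0.05. Under upper-quartile scaling, which moves the median log2 fold change of all genes from 0.01 to -0.16, 336 genes were higher and 607 lower. Beyond the 3 lists, 297 genes rose and 386 fell. The lists themselves were dominated by increases, with 146 members higher and 15 lower. The median log2 fold change was 1.21 among the 297 rising genes and -1.96 among the 386 falling genes, against 0.01 over all genes tested. At least a 2-fold change was found for 201 of the rising and 347 of the falling genes. Treated and untreated ranges of CPM were separate in 296 of the 297 rising genes, where 13.5% of all genes tested lay wholly higher, and in all 386 falling genes, where 13.2% lay wholly lower. Falling genes went from a median of 34.1 CPM in untreated to 7.79 CPM in treated libraries, and rising genes from 41.8 to 107 CPM. Median exon length was 3776 bases for rising, 5393 bases for falling and 4837.5 bases for all genes tested.

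**Figure D1:**
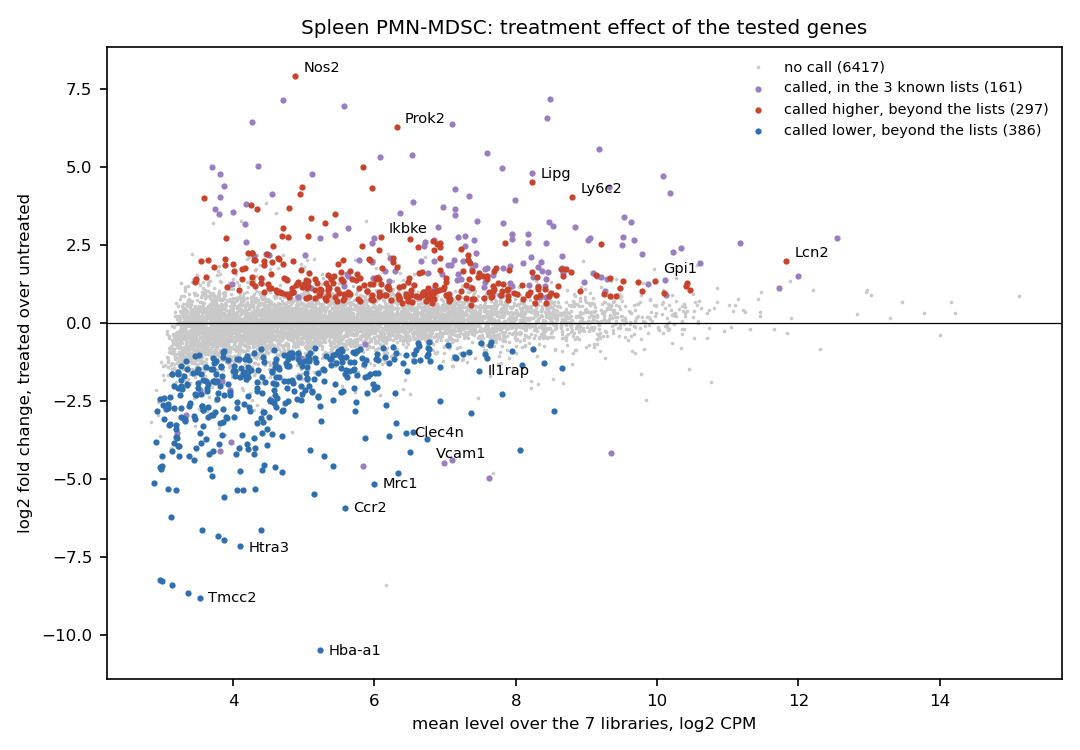
Log2 fold change of treated against untreated spleen PMN-MDSC (vertical axis) by mean level in log2 CPM (horizontal axis), 1 point for each of the 7261 genes tested. Colours mark 297 genes called higher and 386 called lower beyond the interferon, MHC and mature neutrophil lists, 161 called genes within those lists, and 6417 genes with no call.

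Libraries A and G stood apart in these genes. Library A held the highest untreated level in 257 of the 386 falling genes, in 85 of them over 2 times the level of every other untreated library. Library G held the highest treated level in 140 of the 297 rising genes, in 14 of them over 3 times that of both other treated libraries. Calls depended on single libraries in most genes. Of the 297 rising genes, 56 were called in each of the 7 fits that left out 1 library, and of the 386 falling genes 74 were. Without library A, 127 of 297 rising and 190 of the 302 falling genes that could still be tested were called, and without library G 75 of 288 and 115 of 386. Without library D the calls were 76 of 297 and 161 of 368. With A and G both left out, 20 of 286 rising and 57 of 328 falling genes were called, and all 286 and 328 kept their direction, with medians of 1.0 and -1.60 on the log2 scale. At the threshold of the study's methods, an adjusted p under 0.001 with at least a 2-fold change, edgeR called 3 genes higher and 0 lower. DESeq2, the tool that the methods name, called 275 higher and 242 lower on that threshold, a count added after the data were seen, and 1354 genes at an adjusted p under 0.05.

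Promoter sequence was examined first, since many interferon-stimulated genes share a response element in their promoters. The element was searched as GAAA, any 2 bases, GAAA on either strand. Windows ran from 250 bases before to 50 bases after each annotated start of a gene (RefSeq, GRCm38.p6). A gene was counted if at least 1 of its windows held the letters. It was found in 47 of 119 rising genes of the known lists (39.5%), and in 10 of the 230 rising genes beyond them that have a window (4.35%). Of the falling genes with a window 9 of 302 held it (2.98%), of all tested genes with a window 253 of 5481 (4.62%), and of all genes with a window 1079 of 27025 (3.99%). Followed directly by CT, the element was in 21 of 119 known rising genes (17.6%), 1 of 230 rising genes beyond them (0.435%), 0 of 302 falling genes, 0.657% of all tested genes and 0.303% of all genes with a window. The gamma-activated sequence TTCNNNGAA was in 9.57% of rising, 6.95% of falling and 8.23% of all tested genes. The C/EBP core TTGCNNAA was in 9.57%, 10.6% and 10.1%. The share of rising genes beyond the lists that hold these letters was thus near that of all genes tested, and a match describes letters only, not a site in use.

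Sequences are shown for some of the named genes with the largest changes that hold a match, with the match named in each line in capitals and each stretch read 5′ to 3′ along its gene. Of these 24 genes 18 have a window. Ifit1, a member of the interferon list, is given for comparison. It holds 2 elements, both on the opposite strand, of which the one 104 to 95 bases before the start is in capitals and the other lies to its right in lower case (chr19:34640760-34640819, plus strand). Saa3, an acute-phase protein that rose, holds the interferon element 125 to 116 bases before its start (chr7:46715767-46715826, minus strand). The same promoter holds a C/EBP core 99 to 92 bases before the start (chr7:46715742-46715801). Adgrl3, an adhesion receptor that fell, holds the interferon element within a purine-rich stretch (chr5:81020660-81020719, plus strand). This match lies 67 to 58 bases before an alternative start inside the annotated gene. Slco2b1, an organic anion transporter that fell, holds the gamma-activated sequence before an alternative start inside the annotated gene (chr7:99695909-99695968, minus strand). Kcnj10, a potassium channel that fell, holds the C/EBP core (chr1:172341066-172341125, plus strand).
Ifit1, interferon element: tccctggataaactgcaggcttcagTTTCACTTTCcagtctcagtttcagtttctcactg
Saa3, interferon element: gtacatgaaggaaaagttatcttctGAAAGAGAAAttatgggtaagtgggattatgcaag
Saa3, C/EBP core: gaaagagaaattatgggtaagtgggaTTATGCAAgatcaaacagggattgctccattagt
Adgrl3, interferon element: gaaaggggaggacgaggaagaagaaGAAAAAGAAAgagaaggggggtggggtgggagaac
Slco2b1, gamma-activated sequence: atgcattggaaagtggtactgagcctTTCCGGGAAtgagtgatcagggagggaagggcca
Kcnj10, C/EBP core: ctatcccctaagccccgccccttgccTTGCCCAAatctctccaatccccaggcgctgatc

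Ly6c2 had the smallest standard error among the 12 genes with the largest increases. It encodes Ly6C, the surface antigen on which the sort kept the low cells (ENSMUSG00000022584, chromosome 15). Its level was 36.7, 58.3, 90.9 and 51.8 CPM in untreated and 662, 1100.0 and 1116 CPM in treated libraries. Every treated library lay far above every untreated one, with a log2 fold change of 4.01 ± 0.35 (SE, adjusted p = 0.00126). The adjusted p lay between 0.000612 and 0.00993 over the 7 fits that left out 1 library, and was 0.0291 without A and G. Ly6i, a related gene of the same Ly6 cluster, went from 1.92, 5.16, 1.86 and 4.95 CPM to 16.7, 74.0 and 115 CPM (log2 fold change 4.36 ± 0.66, adjusted p = 0.00651, and 0.084 without A and G), and without G its log2 fold change was 3.74. Ly6 genes resemble each other closely, so reads of near-identical stretches could be assigned to the wrong member. The promoter of Ly6c2, printed here because the gene rose together with the interferon list, held 0 matches to the 3 motifs in either annotated window (chr15:75111972-75112221, minus strand, 250 to 1 bases before the start):
Ly6c2: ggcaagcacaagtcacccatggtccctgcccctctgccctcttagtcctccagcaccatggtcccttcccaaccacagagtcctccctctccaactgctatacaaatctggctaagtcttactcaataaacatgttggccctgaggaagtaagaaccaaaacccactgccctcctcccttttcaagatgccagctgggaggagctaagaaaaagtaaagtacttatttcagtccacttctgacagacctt

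Several of the largest increases started from very low levels, and library G often held most of the signal. Prok2, a prokineticin secreted by neutrophils that promotes angiogenesis, went from 2.88, 2.06, 2.17 and 2.04 CPM to 24.7, 54.4 and 469 CPM (log2 fold change 6.28 ± 1.03, adjusted p = 0.00881). All treated libraries were above all untreated ones, and without library G the log2 fold change was 4.05 with an adjusted p of 0.00712. Ggt1, the gamma-glutamyl transferase that cleaves extracellular glutathione, went from 2.64, 5.16, 5.58 and 3.20 CPM to 39.9, 30.3 and 312 CPM (4.97 ± 0.86, adjusted p = 0.0104). Without G its log2 fold change was 3.05 (adjusted p = 0.011), and both genes were still called without A and G. Adgrb1, an adhesion receptor that binds apoptotic cells and bacteria, went from 1.68, 6.19, 1.86 and 2.91 CPM to 10.9, 47.7 and 61.8 CPM (adjusted p = 0.0096). Gja5, a gap junction connexin, was highest in library E, with 4.55, 3.09, 6.82 and 3.20 CPM in untreated and 118, 25.4 and 31.9 CPM in treated libraries (adjusted p = 0.00814). Without E the log2 fold change of Gja5 fell from 3.67 to 2.67. Both were called in each fit without 1 library but not without A and G (adjusted p = 0.111 and 0.0597).

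Other genes with large changes were highest in library G, and most of their calls depended on single libraries. Nos2, the inducible nitric oxide synthase and a suppressive mediator of MDSC, stood at 0, 1.03, 0 and 0.291 CPM in untreated and at 2.90, 5.35 and 196 CPM in treated libraries. Its untreated libraries held 3 counts together, so the treated level was 350.4 times higher with a 95% counting interval of 119 to 1705 (adjusted p = 0.0252). Library G held 486 of the 502 treated counts, and without G the ratio was 18.8 (5.38 to 101), against 236 to 891 without another library. The gene then fell under the minimum of 25 counts, and without A, C or D it was not called (adjusted p from 0.0618 to 0.0804). Saa3 stood at 4.55, 4.12, 3.41 and 3.20 CPM in untreated and at 7.98, 7.13 and 186 CPM in treated libraries (adjusted p = 0.0434), and it too could not be tested without G. Ecm1, an extracellular matrix protein, was at 13.8, 25.4 and 369 CPM in treated libraries against 2.04 to 11 CPM, and without G its log2 fold change fell from 4.32 to 1.52 (adjusted p = 0.179). Adamtsl4, another matrix protein, went from 3.50 to 1.18 on the same scale without G (adjusted p = 0.1). Saa3, Ecm1 and Adamtsl4 were also not called without A, B, C or D (adjusted p from 0.0664 to 0.117). Lipg, the endothelial lipase, was higher in every treated library (298, 138 and 1549 CPM against 12.5 to 63.3 CPM, adjusted p = 0.018), and missed the threshold without A, D or G (adjusted p = 0.0536, 0.0583 and 0.0535). Its log2 fold change of 4.50 was 5.22 without C and 2.83 without G. Lrrc75b, a leucine-rich repeat protein, rose (18.9, 12.5 and 46.8 CPM against 0.874 to 2.40 CPM, adjusted p = 0.005), was called in the other 6 fits without 1 library and fell under the count minimum without G. Of the 12 genes with the largest increases, 6 were called in each fit without 1 library, and 3 of the 8 that could be tested were called without A and G.

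**Figure D2:**
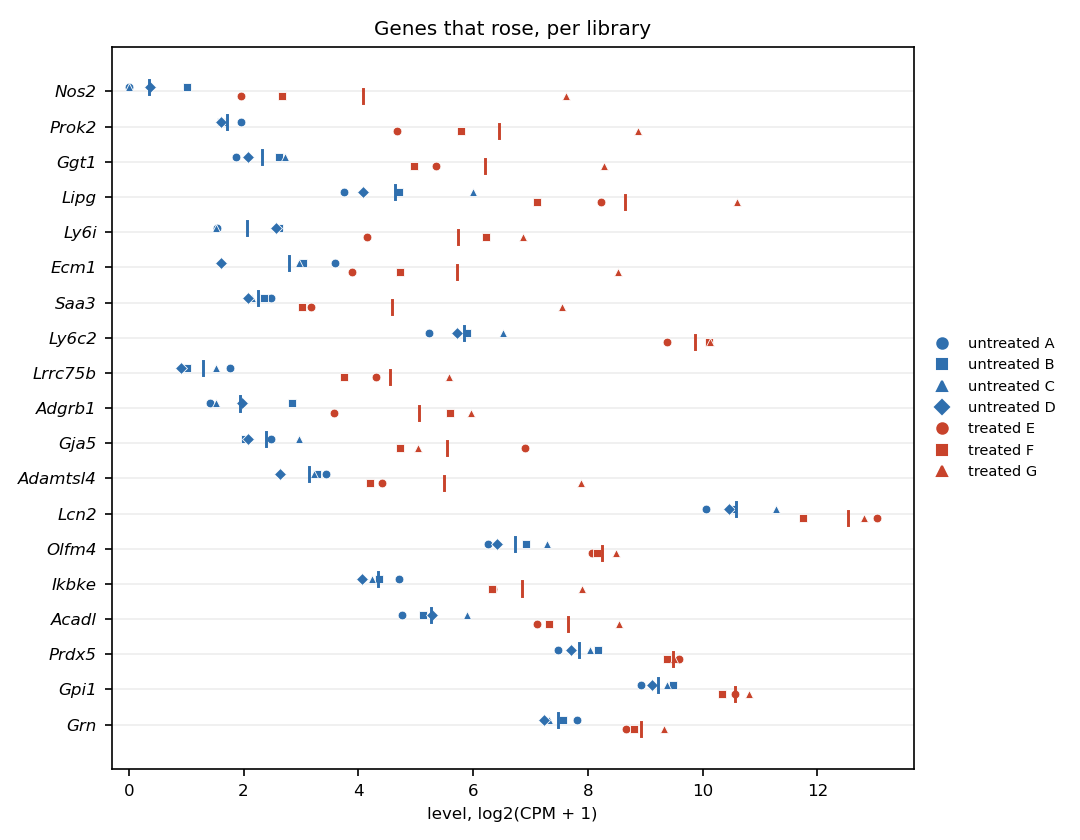
Levels in log2(CPM + 1) (horizontal axis) of 19 rising genes in each of 4 untreated and 3 treated spleen PMN-MDSC libraries, the 12 largest increases and 7 genes from the function lists. Points are libraries and vertical bars group means; library G lies far to the right in Nos2, Saa3, Ecm1 and Adamtsl4, whereas the 3 treated libraries lie close together in Ly6c2 and Prdx5.

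Genes of the specific granules, which are filled at an intermediate stage of neutrophil maturation, leaned upward as a list. All 18 members were tested and all 18 had a positive log2 fold change, with a median of 1.03 (0.55 without library E), but 3 were called (Lcn2, Hp and Olfm4, against 6.1% of all genes called higher). Their summed levels overlapped, at 17423, 18526, 34638 and 19479 CPM in untreated and 88646, 29122 and 30707 CPM in treated libraries. Untreated C lay above treated F and G. Lcn2, the siderophore-binding lipocalin, stood at 1070, 1467, 2496 and 1405 CPM in untreated and at 8362, 3451 and 7180 CPM in treated libraries (log2 fold change 1.98 ± 0.39, adjusted p = 0.0171). Untreated and treated libraries did not overlap, and the call was lost without D (adjusted p = 0.0586) and without G (0.0701). Olfm4, a granule glycoprotein found in a subset of neutrophils, went from 76.0, 120.1, 154 and 84.8 CPM to 269, 286 and 360.0 CPM (adjusted p = 0.0132, and 0.0656 without G). Hp, the haptoglobin gene, rose by 1.26 ± 0.29 on the log2 scale (adjusted p = 0.0255, and up to 0.106 when single libraries were left out). Ltf and Camp, 2 further members, turned to -0.67 and -1.0 without library E, from 0.89 and 0.91. Azurophil granule proteins, which are made earlier in maturation, had 0 of 4 tested members called and a median of -0.12. Cell cycle genes (30 tested) and replication-dependent histones (28 tested) had 0 called members, with medians of 0.06 and 0.29. All measured cell cycle genes summed to 1495 to 1855 CPM in untreated and to 3176, 1193 and 1019 CPM in treated libraries E, F and G, and histones to 1638 to 2363 CPM against 5267, 887 and 1167 CPM. In both lists E lay above and F and G below every untreated library.

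A minority of the genes of lipid, glucose and redox metabolism passed the test. Acadl, a mitochondrial enzyme of fatty acid oxidation, went from 26.1, 34.0, 58.6 and 37.9 CPM to 138, 160.1 and 371 CPM (log2 fold change 2.51 ± 0.40, adjusted p = 0.00809). Prdx5, a peroxide-reducing peroxiredoxin, stood at 177, 289, 261 and 208 CPM in untreated and at 772, 662 and 721 CPM in treated libraries (1.62 ± 0.22, adjusted p = 0.00398). Gpi1, the glycolytic glucose-6-phosphate isomerase, stood at 485, 718, 663 and 556 CPM and at 1504, 1285 and 1793 CPM (1.34 ± 0.22, adjusted p = 0.00881). Without G the log2 fold change of Acadl was 1.88. In all 3 genes the groups were well separated, and each was called in every fit without 1 library, while without A and G Prdx5 alone of them was called (adjusted p = 0.0462, with 0.057 for Acadl and 0.095 for Gpi1). Hk1 (hexokinase, 0.71) and the pentose phosphate enzyme G6pdx (1.01) rose as well, and both calls were lost when A, C, D, E or G was left out. Of the redox list, Keap1, Ncf4, Sod2 and Ncf1 also rose, each call being lost without D and without G, and Cat, the peroxisomal catalase, fell (39.5, 23.7, 19.2 and 23.6 CPM against 7.26, 4.01 and 12.5 CPM, log2 fold change -1.73 ± 0.44, adjusted p = 0.0371, and 0.0376 to 0.0819 in fits without 1 library, under the threshold without C or G). Plin2, which coats lipid droplets, was at 82.7, 82.9 and 487 CPM in treated libraries against 26.1 to 50.5 CPM, and its call was lost without A, C, D or G (adjusted p up to 0.0922). Its log2 fold change was 2.62, and 1.18 without G. As lists, glycolysis had 2 members higher and 1 lower of 21 tested (median 0.38), pentose phosphate and glycogen metabolism 2 and 0 of 14 (0.32), redox defence 5 and 1 of 25 (0.29), fatty acid metabolism 2 and 1 of 24 (0.31), nuclear oxidative phosphorylation 1 and 0 of 54 (0.08) and sterol synthesis 0 of 14 (0.32), against 6.1% higher and 5.52% lower of all genes tested. The summed levels of 4 of these lists, over all measured members, did not overlap between untreated and treated libraries. They were 3889 to 6459 against 6900.2 to 8295 CPM for glycolysis and 3252 to 5052 against 5531 to 6838 CPM for pentose phosphate and glycogen metabolism. For redox defence they were 7128 to 10879 against 11047 to 14359 CPM and for fatty acid metabolism 1279 to 1469.8 against 1769.6 to 2878 CPM. Of all single genes tested, 13.5% likewise lay wholly higher in treated libraries. Sums of other lists were separate too, upward for suppressive mediators (6942 to 13868 against 16948 to 27121 CPM) and downward for ribosome biogenesis (653 to 1300 against 453 to 541 CPM). A sum is carried by its most abundant members.

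Signalling genes that rose included a kinase and 2 feedback inhibitors of the NF-kB list. Ikbke, a kinase related to TBK1 that acts downstream of RNA sensors, stood at 25.2, 19.6, 18.0 and 15.7 CPM in untreated and at 80.6, 79.4 and 237 CPM in treated libraries (log2 fold change 2.75 ± 0.42, adjusted p = 0.00651). All treated libraries lay above all untreated ones, and the gene was also called without A and G (2.10, adjusted p = 0.0238) and without G (1.99). Nfkbia and Tnip1, feedback inhibitors of NF-kB, rose by 1.41 ± 0.28 and 1.23 ± 0.21 on the log2 scale (adjusted p = 0.0171 and 0.0104). Without G these were not called (adjusted p = 0.0714 and 0.0553), and Nfkbia also not without D. The NF-kB list had 3 of 23 members higher and 0 lower, and the SOCS and cytokine signalling list 0 of 15 in either direction, against 6.1% higher and 5.52% lower of all genes. Naip2, a sensor of the inflammasome, and Casp8, an initiator caspase, rose by 0.98 ± 0.19 and 1.10 ± 0.22 (adjusted p = 0.0168 and 0.0171), and both were lost without D or G. Nlrp1b, another inflammasome sensor, fell by 2.48 ± 0.54 (adjusted p = 0.0223), a call lost without A, D or G. Grn, the lysosomal progranulin, went from 224, 190, 159 and 150 CPM to 404, 445 and 642 CPM (1.46 ± 0.23, adjusted p = 0.00808) and was called in every fit, also without A and G (adjusted p = 0.0492). Among transcription factors of the myeloid lineage Klf5, Max, Id2 and Cebpb were called higher of 24 tested, with adjusted p from 0.0279 to 0.0424, and each call was lost without A, D or G. H2-Q5 and Oas1b, called higher here, belong by name to the MHC and OAS families but were not on the lists, a point seen after their values were known.

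The falling genes held many markers of cells other than neutrophils. These results come from bulk RNA, in which fewer cells of a type and less RNA per cell cannot be told apart. The sort on CD11b, Ly6G and Ly6C was set up to leave out such cells. Of 12 tested markers of red pulp macrophages, the splenic cells that clear aged erythrocytes, 8 fell and 0 rose, with a median log2 fold change of -2.44 against 5.52% of all genes called lower. The summed level of all 13 measured markers was 2332, 1638, 1097 and 1478 CPM in untreated and 600.2, 894.8 and 597.3 CPM in treated libraries. No treated library reached the lowest untreated one, but all 13 markers kept a count in every library. Of 4 tested dendritic cell markers 3 fell and Bst2, which is also on the interferon list, rose. All 10 measured dendritic cell markers summed to 416, 288, 251 and 343 CPM against 57.3, 117 and 57.7 CPM. Flt3, a defining gene of dendritic cells and progenitors, was at 0 counts in all treated libraries and at 15 to 52 counts in untreated ones. B cell markers had 1 of 6 tested called lower and all 6 negative, with sums over 13 measured markers of 340.1, 284, 185 and 279 CPM against 110, 174 and 161 CPM. Monocyte markers did not move together, since Ly6c2 rose, Ccr2, Klf4, Cx3cr1 and Csf1r fell, and the sum of 10 measured markers was 2921, 2116, 1218 and 1439 CPM against 1412, 2932 and 2393 CPM. Csf1r and Cx3cr1 were not called without G. The part of these cells in the falling genes was not tested.

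**Figure D3:**
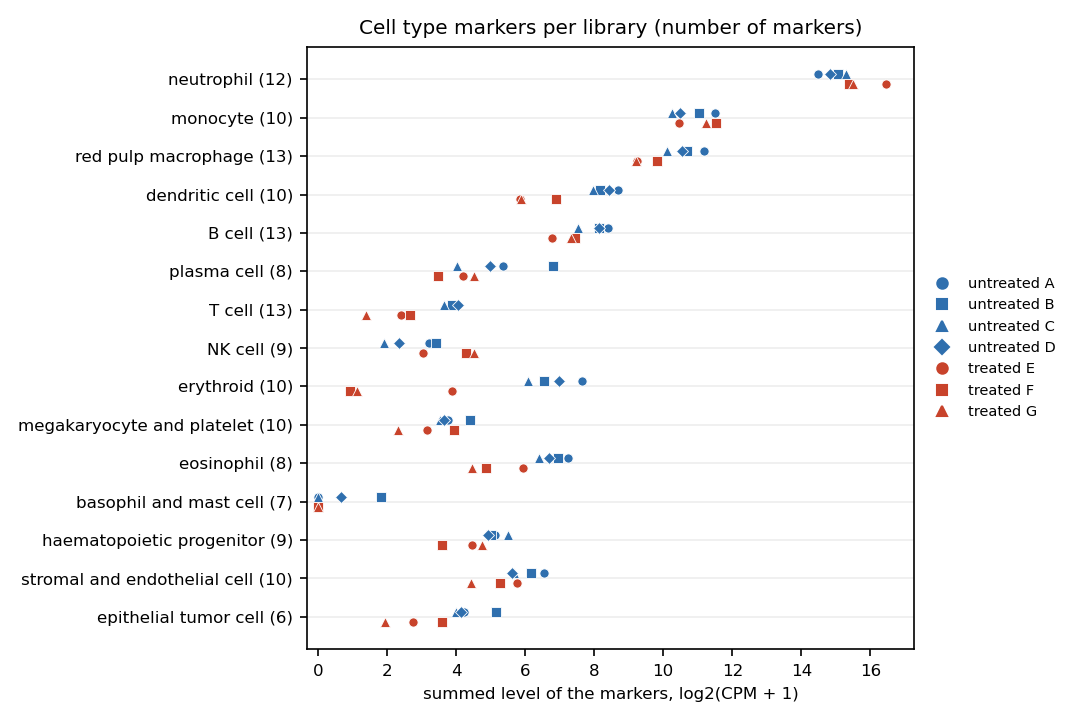
Summed level in log2(CPM + 1) (horizontal axis) of 15 cell type marker lists in each of 4 untreated and 3 treated spleen PMN-MDSC libraries, 1 point for each library. Treated libraries lie to the left of all untreated ones for 8 lists (erythroid, dendritic cell, red pulp macrophage, B cell, T cell, eosinophil, haematopoietic progenitor and epithelial tumor cell) and to the right for neutrophil markers. Of all single genes tested, 13.2% lay wholly lower. The T cell list had 0 tested members, and the progenitor and epithelial lists 1 each, not called. Flt3 is on both the dendritic cell and the progenitor list.

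Red pulp macrophage genes fell strongly and unevenly. Vcam1, the adhesion molecule that binds the integrin VLA-4, stood at 314, 159, 89.0 and 148 CPM in untreated and at 23.9, 11.6 and 6.46 CPM in treated libraries (ENSMUSG00000027962, chromosome 3, log2 fold change -3.72 ± 0.58, adjusted p = 0.00673). Mrc1, the mannose receptor, stood at 218, 78.4, 55.8 and 85.9 CPM and at 5.81, 1.78 and 2.42 CPM (-5.14 ± 0.66, adjusted p = 0.00368). The lowest untreated library was above the highest treated one in both. Axl and Mertk, receptors that recognise apoptotic cells, fell by 3.49 ± 0.65 and 3.21 ± 0.67 on the log2 scale, and Adgre1, the F4/80 antigen, by 2.61 ± 0.38. Axl changed by -4.15 without E and Mertk by -2.53 without A. The complement C1q chains C1qa, C1qb and C1qc fell by 2.42, 2.21 and 2.45, with -3.04 for C1qa without E. Without A and G, Vcam1 (-3.0, adjusted p = 0.0378), Mrc1 (-4.45, 0.0291), Axl (-2.60, 0.0485) and Adgre1 (-2.26, 0.0421) were still called, whereas Mertk and the C1q genes were not (0.0592 to 0.163). Mertk and the C1q genes were also lost without F or G alone. Other genes that define these macrophages did not pass the test. Spic, their lineage factor, stood at 47.9, 20.6, 14.6 and 19.5 CPM and at 7.26, 12 and 9.69 CPM (adjusted p = 0.0877), and Slc40a1, the iron exporter ferroportin, at 570, 678, 591 and 680 CPM and at 354, 705 and 402 CPM (-0.37, adjusted p = 0.411). Cd5l and Hmox1 had adjusted p-values of 0.0807 and 0.275.

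Among the marker lists that kept counts in treated libraries, the erythroid list fell most in summed level (22.9-fold). Hba-a1, an alpha globin, was at 113, 37.6, 40.3 and 71.4 CPM in untreated libraries and at 0 in all treated ones, at least 41.7-fold lower when 3 counts are taken as the floor of each treated library (adjusted p = 0.00368). Its near-identical copy Hba-a2 held 5 counts in treated library E and 0 to 2 counts elsewhere, so the assignment between the copies is uncertain. Hbb-bt, a beta globin with a similar near-identical copy, stood at 27.8, 28.9, 6.82 and 18.9 CPM and had 1 count in the treated group, with a ratio of 124 (95% counting interval 22 to 4904). Without 1 library other than G, which held that count, the ratio was 78.2 to 151. Slc4a1, the erythrocyte anion exchanger, was at least 8.70-fold lower and Tmcc2, a transmembrane coiled-coil protein, at least 12.8-fold lower, each with 0 counts in treated libraries. The sum over 10 erythroid markers was 201, 91.8, 67.0 and 126 CPM against 13.8, 0.892 and 1.21 CPM. Hbb-bt, Slc4a1 and Tmcc2 could not be tested without library A, whose level was among the highest, and Hba-a1 was called in every fit and without A and G (adjusted p = 0.0307).

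Further genes with the largest decreases came from several classes. Ccr2, the receptor that brings monocytes to inflamed tissue, stood at 199, 32, 56.1 and 43.4 CPM and at 2.18, 0.892 and 1.21 CPM (log2 fold change -5.92 ± 0.91, adjusted p = 0.00671). Library A held 831 of its counts. Without A the change was -5.01, and without A and G the change was -4.99 (adjusted p = 0.0291). Hpgd, the enzyme that inactivates prostaglandin E2, stood at 68.8, 27.8, 17.1 and 32.3 CPM and had 2 counts in the treated group, a ratio of 121 (95% counting interval 33.3 to 1002, adjusted p = 0.00403). Without 1 library other than G, which held both counts, that ratio was 76.5 to 144. Htra3, a secreted serine protease, stood at 60.9, 25.8, 18.0 and 14.3 CPM with 1 treated count, and Adam23, a membrane protein of the ADAM family, at 40.7, 13.9, 15.5 and 31.5 CPM with 1 treated count (adjusted p = 0.00557 and 0.00327). The 3 genes were called in every fit without 1 library and without A and G. Slco2b1 was at least 9.78-fold and Adgrl3 at least 8.88-fold lower (6.70 and 5.34 without A), Kcnj10 had 1 treated count against 11.8 to 48.4 CPM, and Cd209a, a lectin of dendritic cells, 1 treated count against 5.27 to 36.7 CPM (adjusted p from 0.00671 to 0.0285). None of these 4 could be tested without A. Adgrl3 and Cd209a also missed the threshold without F or G, and Adgrl3 without D (adjusted p up to 0.0807). Of the 12 genes with the largest decreases, 5 were called in each fit without 1 library and 7 of the 8 testable without A and G.

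**Figure D4:**
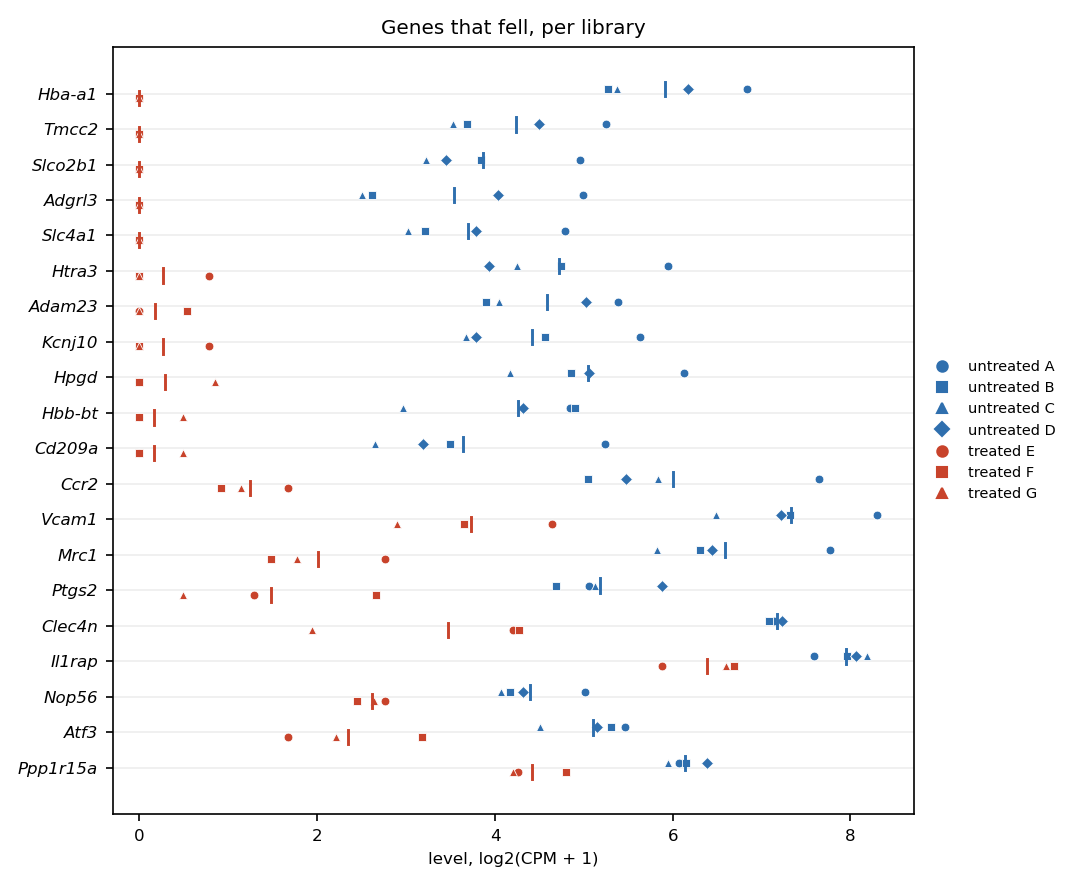
Levels in log2(CPM + 1) (horizontal axis) of 20 falling genes in each of 4 untreated and 3 treated spleen PMN-MDSC libraries, the 12 largest decreases and 8 genes from the function and marker lists. Points are libraries and vertical bars group means; the untreated levels of Clec4n lie between 135 and 149 CPM, whereas library A stands to the right in Ccr2 and Mrc1.

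Immune receptors and inflammatory mediators moved in both directions. Of 40 tested Fc and immune receptors 2 rose (Fcgr4 and Cd52) and 4 fell (Clec4n, Siglecf, Fcgrt and Cd300c2), with a median log2 fold change of 0.06, against 6.1% higher and 5.52% lower of all genes. The calls of Cd52, Fcgrt and Cd300c2 were lost without A, D, F or G. Cytokine receptors had 1 higher and 3 lower of 27, and suppressive mediators 2 higher (Nos2 and S100a8) and 1 lower (Ptgs2) of 15. S100a8, a subunit of calprotectin, had an adjusted p of 0.0476 and was called in 1 of 7 fits without 1 library, that without F (adjusted p up to 0.136). Fcgr4, an activating IgG receptor, rose by 1.66 ± 0.36 and Cd14, the co-receptor for lipopolysaccharide, by 1.91 ± 0.46 (adjusted p = 0.0234 and 0.0311), and both calls were lost without A, C, D, F or G. Without G the change of Cd14 was 1.26. Clec4n, the C-type lectin Dectin-2 that recognises fungal mannans, was level in untreated libraries at 140, 135, 148 and 149 CPM and fell to 17.4, 18.3 and 2.83 CPM (log2 fold change -3.51 ± 0.51, adjusted p = 0.00557). The fall was present without A and G (-3.08, adjusted p = 0.0189) and in every fit without 1 library. Il1rap, the shared signalling chain of the IL-1 receptors, went from 192, 248, 289 and 266 CPM to 58.1, 102 and 96.1 CPM (-1.54 ± 0.26, adjusted p = 0.00902). Ptgs2, the inducible cyclooxygenase that starts prostaglandin synthesis, went from 32.4, 24.7, 33.8 and 58.0 CPM to 1.45, 5.35 and 0.404 CPM (-3.90 ± 0.66, adjusted p = 0.00933). Without F the change of Ptgs2 was -5.46. Library A was not the highest untreated library in any of these 3 genes, and the groups were apart. Il1rap and Ptgs2 were called in every fit without 1 library and had adjusted p-values of 0.0592 and 0.0662 without A and G. Il6st, the gp130 chain shared by receptors of the IL-6 family, went from 61.6, 23.2, 20.2 and 24.5 CPM to 2.90, 3.12 and 1.61 CPM (-3.68 ± 0.56, adjusted p = 0.00659, and 0.0307 without A and G). Ccr3, the eotaxin receptor of eosinophils, fell by 4.01 ± 0.61 and Siglecf, another eosinophil marker, by 2.21 ± 0.50 (adjusted p = 0.00667 and 0.0253), the latter not without D, F or G. Other eosinophil markers did not follow. Ear2 was tested and not called (adjusted p = 0.319), and Epx, Prg2, Ear1 and Ear6 held 0 to 5 counts in each library. Il5ra, under the count minimum, was higher in treated libraries (3.63, 7.13 and 10.5 CPM against 0 to 0.719 CPM). All 8 measured eosinophil markers summed to 151, 124, 84.4 and 103 CPM against 61.0, 28.1 and 21 CPM. The part of eosinophils in these values was not tested.

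Some stress-inducible genes of the immediate early class fell. Of 24 tested members 5 fell and 0 rose, with a median log2 fold change of -0.70, against 5.52% of all genes called lower. The summed levels of all 30 measured members overlapped, at 6264 to 11964 CPM in untreated and 4526 to 8495 CPM in treated libraries. Ppp1r15a (GADD34), which directs a phosphatase to eIF2 alpha after stress, went from 66.1, 70.1, 60.5 and 82.7 CPM to 18.1, 26.8 and 17.4 CPM (-1.74 ± 0.23, adjusted p = 0.00398). Atf3, a stress-induced transcription factor, went from 43.1, 38.7, 21.7 and 34.4 CPM to 2.18, 8.03 and 3.63 CPM (-2.84 ± 0.45, adjusted p = 0.00756, with -3.48 without F). Both were called in every fit without 1 library, with adjusted p-values of 0.0552 and 0.0899 without A and G. Klf4, a factor of monocytes, Fosb and Fos also fell (adjusted p from 0.00824 to 0.0205), Fosb and Fos not without G, and Klf4 could not be tested without A. Heat shock proteins had 1 of 15 called lower (Hspa9, median -0.69) and the unfolded protein response 2 lower and 1 higher of 25 (median -0.53). Asns, the gene called higher, was called in 0 of 7 fits without 1 library (adjusted p = 0.0511 to 0.111, not tested without G). Pdia4 and Atf6 were each called in 1 of 7 such fits and Hspa9 in 3.

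Ribosome biogenesis genes leaned downward as a list. Of 17 tested genes 5 fell (Nop56, Heatr1, Ddx10, Nolc1 and Ddx21) and Polr1a, the catalytic subunit of RNA polymerase I, rose, with a median of -1.59 and 16 negative values, against 5.52% lower and 6.1% higher of all genes. The call of Polr1a was lost without A, C, D or G, and those of Ddx10, Nolc1 and Ddx21 without F or G. Nop56, a core protein of box C/D snoRNPs, went from 31.4, 17, 15.8 and 18.9 CPM to 5.81, 4.46 and 5.25 CPM (-2.02 ± 0.36, adjusted p = 0.0116, and 0.0594 without A and G). Heatr1, which takes part in pre-rRNA transcription, went from 49.4, 24.2, 26.7 and 27.1 CPM to 10.9, 4.01 and 6.05 CPM (adjusted p = 0.0159, and 0.0596 without G). Library A was highest in both, the groups did not overlap, and the median of the list was -0.79 with 0 members called lower without A and G. Cytosolic ribosomal proteins had 4 of 69 called lower (Rpl8, Rps26, Rpl5 and Rps3a1) and a median of -0.37, with 0 to 7 members called lower when single libraries were left out. Rps26 has near-identical pseudogenes that could take part of its reads. Translation factors had 1 of 29 lower (Eif3b, median -0.42), splicing factors 1 of 27 (Hnrnpa1, -0.28), and mitochondrially encoded proteins 0 of 11 (-0.97). The calls of Eif3b and Hnrnpa1 were lost without F or G. The mitochondrial proteins summed to 4092, 717, 2026 and 1823 CPM in untreated and 2061, 1791 and 2062 CPM in treated libraries, so A lay above and B below all others. All mitochondrial genes together held 2.63 to 5.27% of the counts in untreated and 5.31 to 5.92% in treated libraries. All these medians stand beside 0.01 over all genes tested.

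Lysosomal and survival genes moved in both directions, whereas the prostaglandin enzymes that passed the test fell. The counts of these lists stand beside 6.1% higher and 5.52% lower of all genes. Besides Grn, the lysosome list held Npc2 and Lamp2 as rising and Lipa, Lgmn and Ctsa as falling genes of 26 tested, with a median of -0.05, and each call but that of Grn was lost without D. Prostaglandin enzymes had 4 of 11 lower (Hpgd, Ptgs2, Ptges3 and Tbxas1) and 0 higher. Their median was -0.17 with 5 positive values, and the sums of all measured members overlapped (2132 to 3162 CPM in untreated, 2868 to 3976 CPM in treated libraries). The call of Tbxas1 was lost in every fit without 1 library and that of Ptges3 without A, D, F or G. Of 22 Bcl-2 family and death receptor genes, Bak1, which promotes apoptosis, rose by 1.11 ± 0.23 on the log2 scale (adjusted p = 0.0201), and the survival genes Bcl2a1d and Bcl2a1a and the pro-apoptotic Bmf fell. The calls of Bak1 (adjusted p up to 0.0821), Bcl2a1a and Bmf were lost without A, C, D or G. Bcl2a1d stood at 26.8, 18.0, 12.1 and 14 CPM and at 3.63, 3.12 and 4.04 CPM (-2.29 ± 0.40, adjusted p = 0.0104), was not testable without A, and could share reads with Bcl2a1a, a near-identical copy. Hfe, Slc48a1 and Fech of the iron and haem list fell and Hmox2 and Alas1 rose of 15 tested, and each call was lost without at least 1 library. Actin cytoskeleton genes (1 of 42 called, median 0.32), autophagy (1 of 22, 0.35), Toll-like receptors (1 of 21, 0.08) and TGF-beta pathway genes (0 of 13, -0.48) were mostly without calls.

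Several genes by which PMN-MDSC are commonly described were not called. Cxcr2, the main chemokine receptor of neutrophils, stood at 836, 1789, 923 and 1101 CPM and at 943, 1859 and 1753 CPM (log2 fold change 0.39 ± 0.34, adjusted p = 0.514). Csf3r, the G-CSF receptor, stood at 4944, 8188, 5437 and 6332 CPM and at 1891, 5930 and 2721 CPM (-0.82 ± 0.40, adjusted p = 0.229), and without library F it was lower (adjusted p = 0.0416). Il1b stood at 1311, 2821, 1514 and 2092 CPM and at 404, 1449 and 253 CPM (-1.46 ± 0.59, adjusted p = 0.15, and 0.0176 without F). S100a9 (log2 fold change 1.06, adjusted p = 0.076) and Itgam (0.42, 0.202) missed the threshold, although all treated libraries lay above all untreated ones, at 8887 to 15596 against 3357 to 7377 CPM and at 593 to 824 against 476 to 574 CPM. Such separate, higher ranges were found in 13.5% of all genes. Cd274, the gene of PD-L1 (0.53, 0.38), Tnf (0.35, 0.442), Spi1 (0.61, 0.199) and Cxcr4 (-0.49, 0.43) had overlapping groups and were not called.

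The same genes were then read in PMN-MDSC from tumors, from 4 treated and 4 untreated libraries. The series describes 8 mice in all and its sample titles give organs and cell types the same replicate numbers, so spleen and tumor libraries share mice. By these numbers, 1 treated mouse of the tumor group has no spleen PMN-MDSC library here. The columns of the count table do not carry those numbers, and the fits treat the libraries as independent. Of the 297 genes that rose in spleen, 32 of 268 tested were called higher in tumor (11.9%, against 2.29% of all 8308 genes tested there) and 0 lower, with a median log2 fold change of 0.57. Of the 386 that fell, 13 of 356 were called lower (3.65%, against 1.07%) and 2 higher, with a median of -0.29. The difference between the effects was tested as an interaction over both organs, which called 282 of 8047 genes (3.5%), 27 with the larger value in spleen and 255 with the larger value in tumor. Among falling genes 159 of 375 (42.4%) differed, all with the lower value in spleen, and among rising genes 12 of 287 (4.18%). These shares describe genes that were chosen by their call in the same spleen libraries. Vcam1 had a log2 fold change of -3.72 in spleen and 0.31 in tumor (difference -4.03, adjusted p = 0.00687), Mrc1 -5.14 and -0.83 (-4.31, 0.00675), Nop56 -2.02 and 0.11 (-2.16, 0.00687) and Clec4n -3.51 and -0.84 (-2.69, 0.0198). For Ly6c2 the effects were 4.01 and 4.53 (adjusted p of the difference = 0.762), and for Ikbke 2.75 and 0.73 (difference 2.0, adjusted p = 0.0455).

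M-MDSC of the spleen gave the second comparison, Ly6C high Ly6G- cells of the monocyte lineage from 4 treated and 4 untreated libraries. By their titles they come from the same mice as the tumor group, including the treated mouse without a spleen PMN-MDSC library. Of the rising genes 91 of 259 tested were called higher in M-MDSC (35.1%, against 10.7% of all 8827 genes tested there) and 7 lower. Of the falling genes 114 of 337 were called lower (33.8%, against 8.96%) and 27 higher. The interaction called 914 of 8417 genes (10.9%). They included 38.2% of 283 rising genes, 107 with the higher and 1 with the lower value in PMN-MDSC. Of 360 falling genes 198 (55%) differed, all with the lower value in PMN-MDSC. The rising and falling genes were chosen by their call in the same PMN-MDSC libraries, which favours these shares and directions. Axl differed by -5.34 (-3.49 in PMN-MDSC and 1.91 in M-MDSC, adjusted p = 0.00204), Clec4n by -3.66 (-3.51 and 0.22, 0.0028) and Ppp1r15a by -2.72 (-1.74 and 1.06, 0.00293). Gpi1 rose in PMN-MDSC, and its log2 fold change in M-MDSC was 0.09 (difference 1.33, adjusted p = 0.00844). Olfm4 rose in PMN-MDSC and fell by 1.90 in M-MDSC (difference 3.49, adjusted p = 0.00308). In untreated spleens, 248 of the 386 falling genes (64.2%) had a higher mean level in M-MDSC than in PMN-MDSC, as did 121 of the 297 rising genes (40.7%) and 58.3% of all tested genes beyond the lists.

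**Figure D5:**
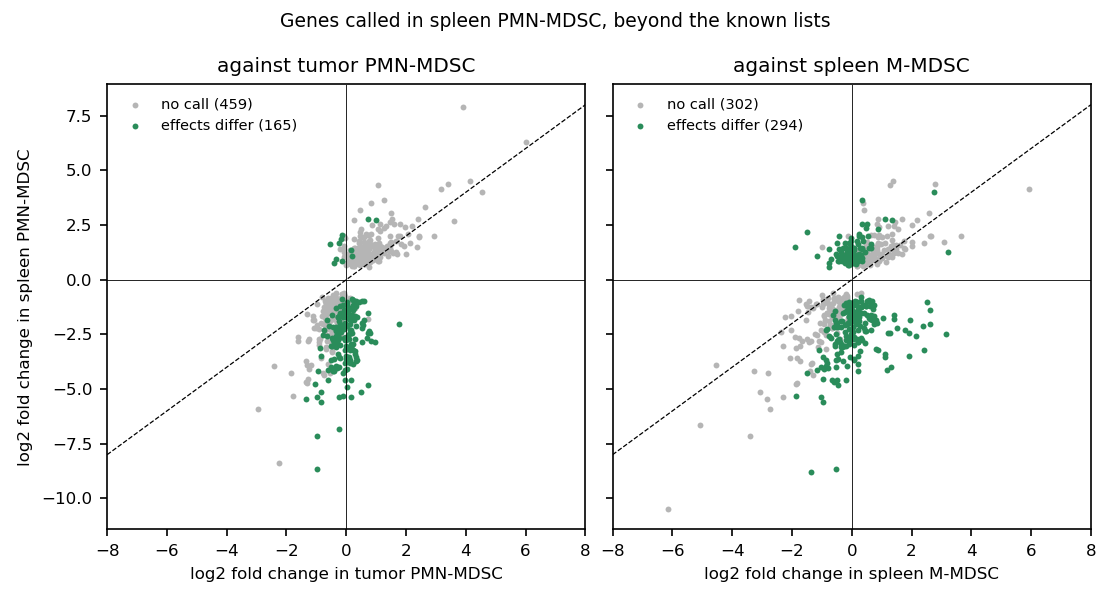
Log2 fold change of the called genes beyond the lists in spleen PMN-MDSC (vertical axis) against that in tumor PMN-MDSC (horizontal axis of the left panel, 624 genes) and in spleen M-MDSC (horizontal axis of the right panel, 596 genes), with a dashed line where both are equal. Coloured points mark 165 and 294 genes whose effects differ by the interaction test; falling genes of spleen PMN-MDSC lie mostly nearer to 0 in tumor PMN-MDSC.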

How the data were processed

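The values are raw fragment counts for each gene as deposited by the authors. According to the methods and the submitters' processing notes, they mapped reads to mm10 (GRCm38) with ContextMap and BWA and counted them by strand with featureCounts (Subread 1.4.6-p3) on Gencode v16. Libraries came from a low-input total RNA kit with PCR and no molecular identifiers, so counting intervals cover counting error only. Symbols came from GENCODE M21 by Ensembl identifier, and 53274 of 53379 matched. Groups follow the labels. Counts were fitted with edgeR 4.0.16 in R 4.3.3 (TMM, robust quasi-likelihood F-test, two-sided) on the libraries of each comparison, with the interactions fitted over 4 groups. Adjusted p-values are Benjamini-Hochberg values over all genes tested. DESeq2 1.42.0, other scalings, filters and thresholds and each library left out were alternatives, and leaving out A and G together was chosen after seeing the data. The code was tested on simulated data. Standard errors are those of the log2 fold change, and n is 4 untreated and 3 treated libraries. Levels of single genes were not compared with each other.

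Named genes are the 12 largest increases and 12 largest decreases among called protein-coding genes of at least 2-fold without overlap between groups, up to 2 called members of each of 37 function lists with the smallest adjusted p, a set of well-known MDSC genes, and markers of 15 cell types where these moved. Some genes under this rule are not reported here and stay out of the counts of named genes. Other called list members were named after their values were seen. The members and lists were chosen with earlier results of these data known. Lists were described by counts and medians, with no set test. Pairs of libraries within a group differed by 6.34 to 34.9 in chi-square per degree of freedom, and 0 pairs were identical.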

Additional observations from a re-analysis of the deposited data

Results flagged for a closer look

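Among the 4 untreated libraries, 1 library lay far from the other 3 in 10 of 111 sets of values examined, and chance alone gives about 1 such set in 20. The measure is the gap of the extreme library to its nearest neighbour as a share of the whole range. Library A was highest for Ccr2 (199 CPM against 32 to 56.1, share 0.855), Il6st (61.6 against 20.2 to 24.5, 0.896), Heatr1 (49.4 against 24.2 to 27.1, 0.886), Hspa9 (55.4 against 22.3 to 26.8, 0.865), Mertk (70.2 against 15.8 to 24.7, 0.836), Cd209a (36.7 against 5.27 to 10.3, 0.84) and Prok2 (2.88 against 2.04 to 2.17, 0.842). Library D was highest for Pdk1 (16.3 against 11.5 to 12.1 CPM, 0.877). Library B was highest for Bst2 (7.22 against 2.91 to 3.60 CPM, 0.841) and for the summed epithelial tumor cell markers (34.5 against 14.9 to 18.0 CPM, 0.843).

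The treatment effect differed between spleen and tumor PMN-MDSC for 282 genes and between PMN-MDSC and M-MDSC of the spleen for 914 genes, each tested as an interaction. Examined here were 85 genes named by the rule outside the cell type marker lists and 11 called markers described above. Of these, 26 differed between organs (against 3.5% of all 8047 genes tested) and 37 between cell types (against 10.9% of 8417). Many were named for their call in the same spleen PMN-MDSC libraries, a choice that favours such differences. Values are differences in log2 fold change, except where a group held at most 3 counts. There a fitted difference gives no size, and the adjusted p stands alone. Against tumor PMN-MDSC, the effect in spleen was lower for Tmcc2 and Kcnj10 (adjusted p = 0.00687 each), Htra3 (0.0321), Hpgd (0.017) and Klf4 (0.024). It was also lower for Mrc1 (-4.31), Vcam1 (-4.03), Ccr3 (-3.53), Axl (-3.50), Mertk (-3.47), C1qa (-3.26), C1qc (-3.19), Il6st (-3.17), C1qb (-2.74), Clec4n (-2.69), Hfe (-2.65), Adgre1 (-2.64), Atf3 (-2.43), Nop56 (-2.16), Evl (-1.98), Pdk1 (-1.61), Slc48a1 (-1.59), Bcl2a1d (-1.55) and Hspa9 (-1.48). It was higher for Ikbke (2.0) and Casp8 (0.89).

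Against M-MDSC of the spleen, the effect in PMN-MDSC was lower for the receptors and mediators Ptgs2 (-5.57), Mertk (-5.56), Axl (-5.34), Ccr3 (-5.23), Clec4n (-3.66), C1qc (-3.65), C1qb (-3.63), C1qa (-3.57), Vcam1 (-3.36), Il6st (-2.76), Adgre1 (-2.60) and Tnf (-1.92). It was lower for the factors of growth, stress and RNA metabolism Pdia4 (-3.09), Ppp1r15a (-2.72), Nop56 (-2.10), Heatr1 (-2.09), Hnrnpa1 (-1.86), Hspa9 (-1.77) and Eif3b (-1.50). It was also lower for Tmcc2 (adjusted p = 0.00514), Kcnj10 (0.0285) and Klf4 (0.0125), and for Bcl2a1d (-3.99), Evl (-2.34), Hfe (-2.31) and Pdk1 (-1.50). It was higher for Olfm4 (3.49), Ly6g (2.86), Cd14 (2.06), Cebpa (1.42), Ly6c2 (1.34), Gpi1 (1.33), Npc2 (1.0), G6pdx (0.93), Atg12 (0.91), Casp8 (0.90) and Naip2 (0.71). Ptgs2 was near the floor in M-MDSC, at a mean of 0.44 CPM in untreated and 1.54 CPM in treated libraries, so the size of its difference is uncertain.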

How the results depend on the processing

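No paired analysis was possible because treated and untreated mice of this comparison share no replicate number. For the interactions, titles share numbers across organs and cell types, but the count columns carry none. The genes named as rising or falling kept their direction in every alternative that tested them. Not called, Ltf (0.89), Camp (0.91) and Cebpe (0.59) turned to -0.67, -1.0 and -0.73 without library E, and Mpeg1 (0.15) to -0.36 without F and -0.04 with upper-quartile scaling. By contrast, the counts of calls were not stable. Higher and lower calls numbered 693 and 661 with DESeq2, 726 and 1092 without a filter on low counts, 3 and 0 at the threshold of the methods (275 and 242 there with DESeq2, added after seeing the data), and 61 and 67 without A and G. Lower calls numbered 607 with upper-quartile scaling, 233 with at least 10 counts in every library and 1036 in a fit over the 4 PMN-MDSC groups. Without 1 library each, 170 to 505 genes were higher and 137 to 522 lower. Beyond the lists, higher and lower calls were 520 and 640 with DESeq2, 553 and 1063 without a filter, 460 and 1010 over 4 groups, 0 and 0 at the threshold of the methods (139 and 232 with DESeq2), and 20 and 61 without A and G. Lower calls beyond the lists were 589 with upper-quartile scaling and 224 with at least 10 counts in every library. Leaving out 1 library gave 78 to 343 higher and 131 to 509 lower genes beyond the lists. The interaction with tumor called 501 genes with DESeq2, 676 without a filter, 45 with at least 10 counts in every library and 75 to 447 without 1 library. That with M-MDSC called 1590 without a filter, 513 with at least 10 counts and 570 to 1414 without 1 library. DESeq2 called all 837 of the calls it tested, and upper-quartile scaling 737 of 844. Fewer genes tested or fewer libraries are part of the filter and leave-one-out settings. For the rest the cause was not tested. With 3 treated libraries, genes near the floor of 3 counts have only a bound or a ratio with a wide counting interval.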
